A study of Sparassis latifolia with 18 samples.

Results

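EVM0005719 and EVM0006859 are the 2 genes of Sparassis latifolia, among the 1100 genes of the deposited expression table, that carry the short chain dehydrogenase domain by the Pfam annotation of the study. They were taken by their identifiers, over all 6 groups and 18 libraries. The study names 5 such genes, and the other 3 were not analysed here. Its annotation tables list only genes it called differentially expressed, so other short-chain dehydrogenases may stand unlabelled in the expression table. Both genes come from the set of genes that the study placed in a module following time and called at 10 days in these same libraries. Their rise at 10d is therefore not independent evidence of its direction. The study also measured EVM0005719 by qRT-PCR and reports a pattern similar to that of its RNA-Seq. EVM0006859 was not among the genes it measured in that way.

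S. latifolia is a brown-rot fungus and edible mushroom that grows on conifer wood. Mycelium of strain SP-C was grown in liquid medium, and sterilized fresh pine sawdust was added so that it had been present for 1, 6, 24, 120 or 240 h at a common harvest. These groups are called 1h, 6h, 1d, 5d and 10d, and CK is the group with 0 h of pine sawdust inducing (PSI). Each group has 3 libraries of mRNA from whole mycelium, all of the same strain. In such bulk material, fewer hyphae that express a gene and less transcript per hypha cannot be told apart. The groups differ in the age of the mycelium when sawdust arrived as well as in the length of contact, and these cannot be told apart. The study left out 4 libraries because they correlated less with the rest: T-5d-2, T-1d-3, T-1h-3 and CK-1. Over all genes these libraries had a mean Pearson r of 0.956 to 0.977 with the kept libraries of their own group. Among kept libraries of the same group it was 0.987 to 0.996. As kept libraries were compared with kept ones alone, part of this gap comes from that choice. Values are FPKM, fragments per kilobase of transcript scaled to the mapped fragments of each library. The table holds no counts, and the read totals that the study lists for each library were not used here, so no counting error is given for a value.

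Short-chain dehydrogenases are a large family of enzymes that use NAD(H) or NADP(H) to oxidize alcohols or reduce ketones and double bonds. EVM0005719 is annotated as a peroxisomal 2,4-dienoyl-CoA reductase, and its closest Swiss-Prot entry is SPS19 of baker's yeast. This enzyme reduces the double bonds of unsaturated fatty acids so that β-oxidation in the peroxisome can go on. EVM0006859 is annotated only as an oxidoreductase with an NAD(P)-binding fold, resembling an uncharacterized protein of fission yeast, and its substrate is not known. In brown-rot fungi growing on conifer wood, lipids and resin compounds are among the small molecules that the mycelium meets beside cellulose.

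EVM0005719 was the more abundant gene in every library, with a mean of 869 FPKM over the 18 libraries, against 53.4 FPKM for EVM0006859. FPKM is scaled to transcript length, so these levels can be set side by side. Within the table, EVM0005719 stood between rank 11 and rank 66 of the 1100 genes in each library, and EVM0006859 between rank 236 and rank 582. The median gene of the table averaged 27.2 FPKM. The coefficient of variation over the 18 libraries was 0.522 for EVM0005719 and 0.504 for EVM0006859, against a median of 0.479 over the table. A lower coefficient was found for 59.7% of the genes in the case of EVM0005719 and for 55.6% in the case of EVM0006859.

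In CK, EVM0005719 was at 917, 504 and 494 FPKM in replicates 1, 2 and 3. At 1h it was at 571, 743 and 975 FPKM, and at 6h at 641, 601 and 625 FPKM. At 1d the values were 299.7, 506 and 538 FPKM. No 6h or 1d library lay above the whole range of CK, and 1 library each of 1h (above) and 1d (below) lay outside that range. At 5d this gene was at 982, 1063 and 959 FPKM, and at 10d at 1715, 1806 and 1708 FPKM. All 3 libraries of 5d and of 10d lay above all 3 CK libraries, and the 10d libraries lay above every other library. The means over 3 libraries were 638 ± 241 FPKM in CK, 763 ± 203 FPKM at 1h, 622 ± 20.3 FPKM at 6h, 448 ± 129 FPKM at 1d, 1001 ± 54.5 FPKM at 5d and 1743 ± 54.8 FPKM at 10d (SD, n = 3 each). In ascending order these means ran 1d, 6h, CK, 1h, 5d and 10d. The libraries of 6h and CK, of CK and 1h, and of 1h and 5d overlapped, so these neighbours did not separate. The gap between 10d and 5d was 742 FPKM, with no overlap.

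The dehydrogenase of unknown substrate, EVM0006859, had another course. It was at 28.0, 36.3 and 32.1 FPKM in CK, at 38.0, 37.2 and 29.3 FPKM at 1h and at 23.6, 29.0 and 28.5 FPKM at 6h. At 1d its values were 50.8, 62.0 and 39.2 FPKM, all above the 3 CK libraries. It was at 91.5, 102.6 and 87.2 FPKM at 5d and at 76.9, 86.3 and 82.0 FPKM at 10d. The 10d libraries thus lay between those of 1d and those of 5d, and the highest group was 5d, not 10d. On the log2 scale the difference of 10d from 5d was -0.13 in the 14 kept libraries. The median over all tested genes was also -0.13. The means were 32.1 ± 4.19 FPKM in CK, 34.8 ± 4.79 FPKM at 1h, 27.0 ± 3.01 FPKM at 6h, 50.7 ± 11.4 FPKM at 1d, 93.7 ± 7.95 FPKM at 5d and 81.7 ± 4.73 FPKM at 10d (SD, n = 3 each). Only 6h, CK and 1h, the lowest groups, overlapped with their neighbours in this order.

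**Figure D1:**
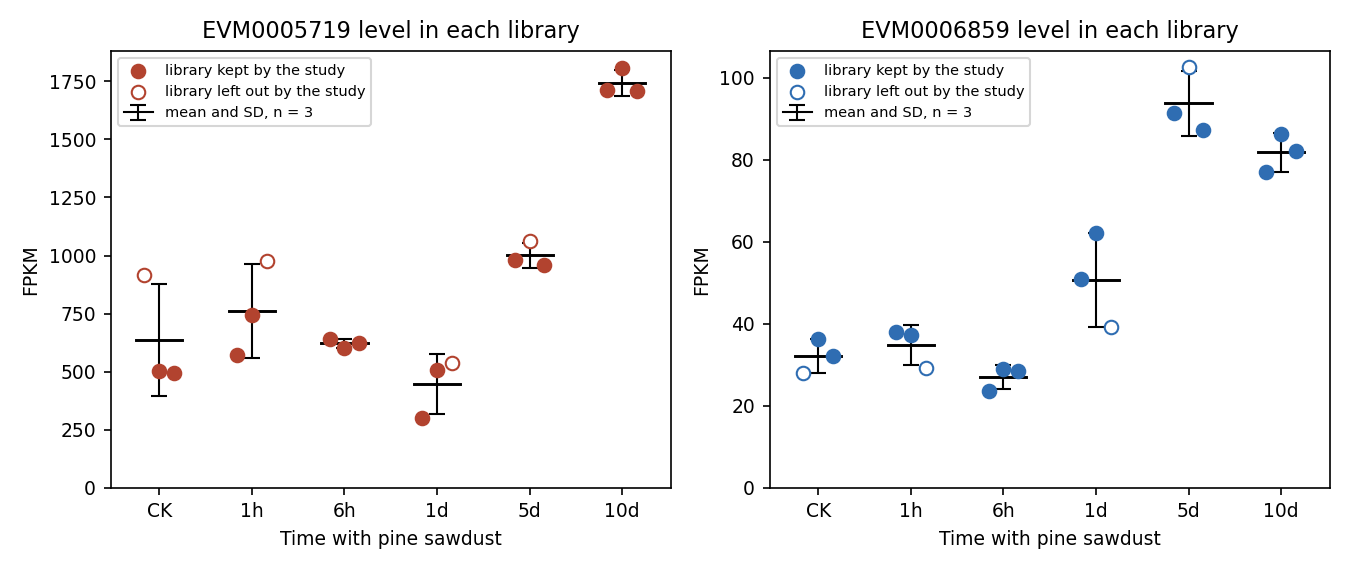
FPKM of EVM0005719 (left) and EVM0006859 (right) in each of the 18 libraries by time with pine sawdust, on linear axes from 0. Filled points are libraries kept by the study, open points the 4 it left out, and bars the mean and SD of 3 libraries. EVM0005719 is highest at 10d (1708 to 1806 FPKM) and EVM0006859 at 5d (87.2 to 102.6 FPKM).

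The comparisons with CK ask which transcripts change once the mycelium is in contact with pine sawdust. A call needed a fold over 2 together with an adjusted p below 0.01 in limma, and was made first in the 14 kept libraries. On the log2 scale EVM0005719 rose at 10d by 1.80 (SE 0.17, limma adjusted p = 3.24e-07), and its mean FPKM was 3.49 times that of CK. With all 18 libraries the log2 fold change was 1.51 (SE 0.25, limma adjusted p = 8.19e-05) and the ratio of means 2.73. EVM0006859 rose at 10d by 1.23 (SE 0.11, limma adjusted p = 1.91e-07), and by 1.33 (SE 0.16, limma adjusted p = 5.08e-06) with all 18 libraries. The higher level at 10d was seen in 3 of 3 libraries for both genes. Both genes were thus called up, where 18.5% of the 1088 genes tested were called up in the 14 libraries and 14.1% of 1093 in all 18. The module and the call at 10d were used by the study to pick these genes, so nothing is read from this count. In these libraries 35% of the genes were called down at 10d (31.8% in all 18). Accordingly the log2 fold changes of all genes had a median of -0.44 at 10d, which became 0.01 after quantile normalization, where all libraries are given one distribution of values. That scaling called 253 genes up and 233 down, against 201 up and 381 down without it. With that scaling the log2 fold change at 10d was 1.25 for EVM0005719 and 1.29 for EVM0006859, and both were still called.

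At 5d EVM0006859 was called and EVM0005719 lay at the fold threshold. EVM0006859 rose by 1.36 (SE 0.12, limma adjusted p = 3.6e-07) in the 14 libraries and by 1.52 (SE 0.16, limma adjusted p = 2.36e-06) in all 18, a 2.61-fold and a 2.92-fold ratio of means. For EVM0005719 the log2 value was 0.96 (SE 0.18, limma adjusted p = 0.000366), just under the fold threshold. With all 18 libraries it was 0.71 (SE 0.25, limma adjusted p = 0.0215), and with quantile normalization 0.50. It was over the threshold and called with median scaling (1.05), with a replicate block (1.08) and with T-5d-2 alone added (1.00). The share of tested genes called up at 5d was 14.2% in the 14 libraries and 11.7% in all 18. At 5d 80 of the tested genes had a larger log2 fold change than EVM0006859, and 168 a larger one than EVM0005719. At 10d these numbers were 131 for EVM0006859 and 51 for EVM0005719.

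**Figure D2:**
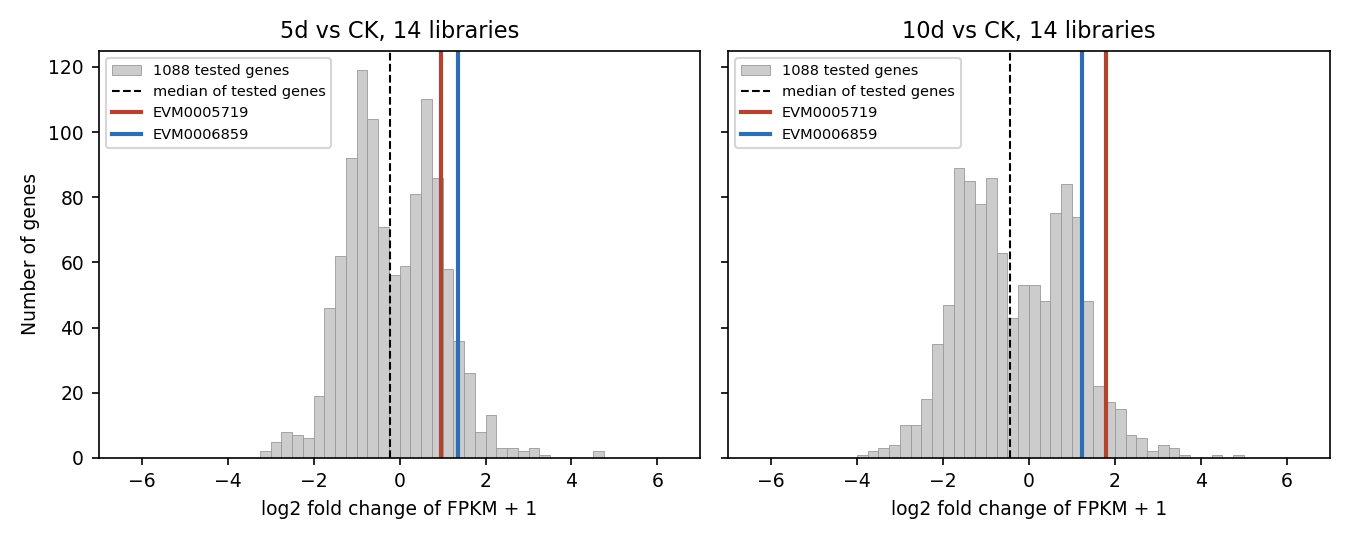
Number of genes (y axis) by log2 fold change of FPKM + 1 (x axis) for 5d and 10d against CK, over the 1088 genes tested in 14 libraries. The dashed line is their median, and the coloured lines mark EVM0005719 (0.96 at 5d, 1.80 at 10d) and EVM0006859 (1.36 at 5d, 1.23 at 10d).

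Before 5d neither gene was called against CK, in the 14 or in all 18 libraries. At 1h, where 10.6% of the tested genes were called up (9.97% in all 18 libraries), the log2 fold change was 0.38 (SE 0.18, limma adjusted p = 0.0887) for EVM0005719 and 0.13 (SE 0.12, limma adjusted p = 0.348) for EVM0006859. At 6h, with 13.9% of genes called up (14.1% in all 18), it was 0.32 (SE 0.17, limma adjusted p = 0.106) for EVM0005719 and -0.33 (SE 0.11, limma adjusted p = 0.0159) for EVM0006859. The value of EVM0005719 was 0.02 with all 18 libraries, or with CK-1 alone added, and -0.08 with quantile normalization, so it has no settled direction. At 1d, with 8.55% called up (6.5% in all 18), EVM0006859 was at 0.70 (SE 0.12, limma adjusted p = 0.000205), under the fold threshold. Without T-1d-2 this value was 0.56, and the range over all left-out libraries reached 0.84. EVM0005719 was at -0.36 at 1d (SE 0.18, limma adjusted p = 0.105). This value depended on T-1d-1, the lowest of all 18 libraries for this gene, and was 0.02 without it.

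The steps between successive times set neighbouring groups against each other, without CK. All groups were harvested together, so no level was followed over time in a culture. From 6h to 1d EVM0006859 rose by 1.03 (SE 0.11, limma adjusted p = 2.23e-06), in a step where 5.24% of the tested genes were called up. With all 18 libraries, where 2.2% were called up, this step was 0.86 (SE 0.16, limma adjusted p = 0.000581), under the fold threshold, and it was also under that threshold without T-1d-2 (0.89) or T-6h-1 (0.94). EVM0005719 had a log2 difference of -0.67 in the same step (SE 0.17, limma adjusted p = 0.00367), and of -0.52 (SE 0.25, limma adjusted p = 0.131) with all 18 libraries. Without T-1d-2 it was -1.05 and called, and without T-1d-1 it was -0.30. The share of genes called down in this step was 16.7%, and 13.5% with all 18 libraries.

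From 1d to 5d EVM0005719 rose by 1.32 (SE 0.18, limma adjusted p = 3.98e-05), and by 1.20 (SE 0.25, limma adjusted p = 0.00157) with all 18 libraries, in a step where 11.5% and 8.05% of the genes were called up. Without T-1d-1 the value was 0.94, and with quantile normalization 0.87, neither over the fold threshold. EVM0006859 had a log2 difference of 0.66 in this step (SE 0.12, limma adjusted p = 0.000318), or 0.90 with all 18 libraries. From 5d to 10d EVM0005719 had a log2 difference of 0.84 (SE 0.17, limma adjusted p = 0.000986), under the fold threshold, and 0.80 (SE 0.25, limma adjusted p = 0.0662) with all 18 libraries. With median scaling it was 1.06 and called. In this step 2.94% of the tested genes were called up (0.183% in all 18 libraries), and 44 genes had a larger log2 difference. EVM0006859 was at -0.13 (SE 0.11, limma adjusted p = 0.354), at the middle of all tested genes, whose median was also -0.13. With median scaling the value of EVM0006859 was 0.09. The step from 1h to 6h had no call for either gene, with -0.07 (SE 0.17) for EVM0005719 and -0.47 (SE 0.11, limma adjusted p = 0.0022) for EVM0006859, while 12.2% of genes were called up (9.88% in all 18).

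The longest contact can also be set against the shortest, where CK is not used. The study picked these genes on the same 10d libraries, so a higher level at 10d is not independent evidence here either. At 10d EVM0005719 was higher than at 1h by 1.42 on the log2 scale (SE 0.17, limma adjusted p = 3.41e-06) and EVM0006859 by 1.10 (SE 0.11, limma adjusted p = 5.72e-07). Both were called, in the 14 libraries, where 18.8% of the tested genes were called up, and in all 18 (17.6%). The differences with all 18 libraries were 1.22 for EVM0005719 and 1.21 for EVM0006859. With quantile normalization EVM0005719 was at 0.73 and lost its call.

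**Figure D3:**
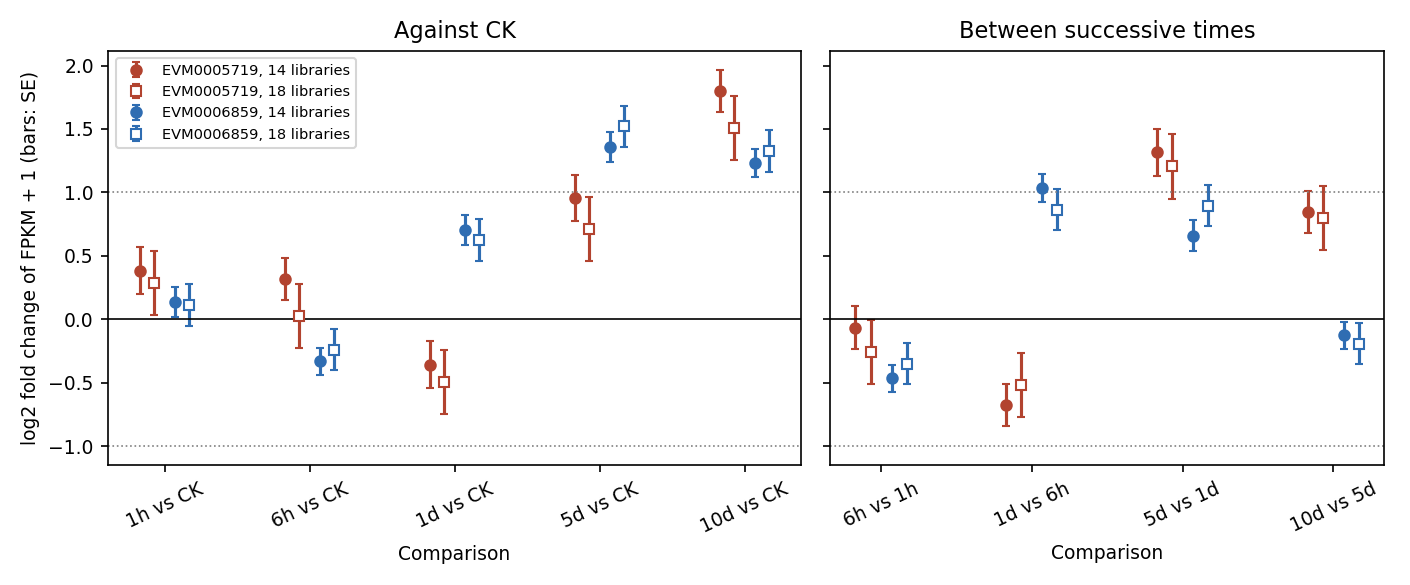
Log2 fold change of FPKM + 1 (y axis, bars show the SE) for each time against CK (left) and for successive times (right), for EVM0005719 (red) and EVM0006859 (blue) in 14 (filled circles) and 18 (open squares) libraries. Dotted lines mark the fold threshold, which both genes pass at 10d and only EVM0006859 at 5d.

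The level of EVM0005719 relative to that of EVM0006859 was followed within each library, where scaling between libraries largely cancels. The FPKM of EVM0005719 was 32.8, 13.9 and 15.4 times that of EVM0006859 in CK. It was 15.0, 20.0 and 33.2 times as high at 1h and 27.2, 20.7 and 21.9 times as high at 6h. At 1d the ratio was 5.90, 8.16 and 13.7, and at 5d 10.7, 10.4 and 11.0. It stood at 22.3, 20.9 and 20.8 at 10d. The libraries of 1d and 5d all lay below those of CK, and the 10d libraries lay within the range of CK when CK-1 was included.

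The test of this ratio was planned for the 14 kept libraries, and the values with all 18 are given first. With all 18 libraries the mean log2 ratio was 3.10 ± 0.61 at 1d, against 4.22 ± 0.67 in CK (SD, n = 3 each). The difference was -1.12, with a two-sided exact permutation p = 0.1, the smallest that 3 against 3 libraries allow. At 5d the mean ratio was 3.41 ± 0.04, against the same CK value, a difference of -0.81 with an exact permutation p = 0.1. Over the 5 times compared with CK both had a Benjamini-Hochberg adjusted p of 0.25 from the exact permutation test. At 10d the difference was 0.18 (exact permutation p = 0.8), and it was 0.26 at 6h (p = 0.6, exact) and 0.17 at 1h (p = 0.7, exact). In the 14 libraries the differences were 0.65 at 6h, -1.06 at 1d, -0.40 at 5d and 0.57 at 10d, with no overlap with CK. The mean of CK was 3.83 there, without CK-1. The exact test there allows no p under 0.2 for 6h and 10d and none under 0.333 for 1d and 5d. For each of these times the Benjamini-Hochberg adjusted p from the exact permutation test was 0.417. The 10d libraries did not overlap with CK in the 14 libraries and did so in the 18, because CK-1 had the highest ratio of the CK group.

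**Figure D4:**
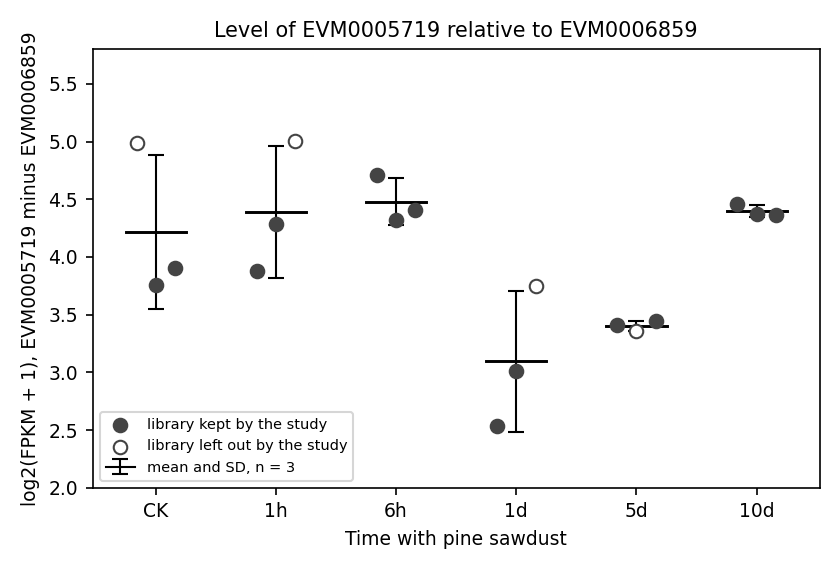
Difference of log2(FPKM + 1) between EVM0005719 and EVM0006859 (y axis, starting at 2) in each library by time with pine sawdust. Filled points are kept libraries, open points those left out by the study, and bars the mean and SD of 3 libraries; 1d (3.10 ± 0.61) and 5d (3.41 ± 0.04) lie below CK (4.22 ± 0.67).

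The libraries left out by the study touch these genes directly. EVM0005719 was 1.84 times as high in CK-1 as in the mean of CK-2 and CK-3, and only 55 of 1093 genes had a larger log2 difference. It was 1.48 times as high in T-1h-3 as in its kept partners, 1.33 times in T-1d-3 and 1.09 times in T-5d-2. EVM0006859 was at 0.817 times its kept partners in CK-1, 0.78 times in T-1h-3 and 0.694 times in T-1d-3, and at 1.15 times in T-5d-2. In the left-out libraries of CK, 1h and 1d the 2 genes thus departed in opposite directions, and in T-5d-2 in the same direction. When CK-1 alone was added to the 14 libraries, the log2 fold change of EVM0005719 was 1.51 at 10d, still called, and 0.67 at 5d. The part of sample quality in these departures was not tested.

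Genes that follow each of the 2 dehydrogenases were sought by Pearson r of log2(FPKM + 1) over the 18 libraries, given as a description across genes that share libraries and scaling. The r between EVM0005719 and EVM0006859 was 0.548, and 0.64 over the 14 kept libraries. In this order EVM0006859 was number 221 among the 1092 genes set against EVM0005719, and EVM0005719 was number 228 for EVM0006859. An r over 0.8 was found for 69 genes with EVM0005719 and for 58 genes with EVM0006859. The genes most like EVM0005719 were EVM0002029 (r = 0.983), EVM0011849 (0.971), EVM0008769 (0.966), EVM0001047 (0.965) and EVM0009482 (0.962). EVM0011849 encodes a protein with a homeobox domain, a DNA-binding domain of transcription factors. EVM0008769 carries an EthD domain, known from bacterial breakdown of ethers, and the others have no annotation in the tables used. EVM0002029 had a mean of 707 FPKM at 10d, against 289 FPKM in CK, and its lowest mean was likewise at 1d, with 235 FPKM. The lowest r values were those of EVM0005789 (-0.959) and EVM0005110 (-0.948), whose means were highest at 1d.

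The genes most like EVM0006859 were EVM0000638 (r = 0.933), EVM0012943 (0.932), EVM0002142 (0.925), EVM0007924 (0.924) and EVM0010863 (0.923). None of these has an annotation in the tables used, and none is among the 5 genes most like EVM0005719. EVM0012943 had means of 97.3 FPKM in CK, 120 FPKM at 1d, 214 FPKM at 5d and 174 FPKM at 10d, so that 5d was also its highest group. EVM0000005 had the lowest r (-0.93), with a mean of 18.7 FPKM at 10d, against 217 FPKM in CK. EVM0011712 followed with an r of -0.915.

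A dienoyl-CoA reductase works beside other enzymes of the peroxisome, and 4 other genes were listed for peroxisome and fatty acid breakdown from the annotation of the study. The carnitine acetyltransferase gene of this list was not analysed here, and 3 genes were tested. EVM0005089 encodes a MaoC-like peroxisomal dehydratase, which hydrates the double bond in β-oxidation. EVM0010738 encodes an acyl-CoA thioesterase, which frees fatty acids from coenzyme A. EVM0011998 encodes a catalase, which removes the hydrogen peroxide that peroxisomal oxidation makes. At 10d 2 of the 3 genes were called up and 1 was not called, in the 14 as in all 18 libraries, and their median log2 fold change was 1.32 in the 14 libraries, against -0.44 over all tested genes. Of all tested genes 18.5% were called up at 10d in the 14 libraries and 14.1% in all 18. At 5d 2 of the 3 were called up in the 14 libraries, beside 14.2% of all genes, and 0 in all 18, beside 11.7%. From 1h to 1d none was called up. The lists hold genes that the study itself called at 10d from the same libraries, and their counts are not independent evidence.

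EVM0005089 was at 359, 405 and 388 FPKM at 10d, against 104, 167 and 141 FPKM in CK, and rose by 1.32 (SE 0.19, limma adjusted p = 2.36e-05). EVM0010738 was at 65.5, 74.0 and 85.2 FPKM at 10d, against 24.3, 25.4 and 16.8 FPKM in CK, and rose by 1.80 (SE 0.25, limma adjusted p = 1.72e-05). The catalase gene EVM0011998 was at 28.8, 31.2 and 28.1 FPKM at 10d, against 18.9, 14.6 and 15.8 FPKM in CK. No library of 10d overlapped with CK for these genes. The log2 fold change of EVM0011998 was 0.90 (SE 0.11, limma adjusted p = 6.23e-06), under the fold threshold. At 1h the log2 value of EVM0011998 was -0.996 (SE 0.12, limma adjusted p = 1.74e-05), just short of the fold threshold, and with all 18 libraries it was -1.11 (SE 0.19, limma adjusted p = 0.000232) and called down. At 5d T-5d-2 stood apart for these genes. EVM0005089 was at 314, 160 and 335 FPKM in the 5d replicates 1, 2 and 3, and EVM0010738 at 68.5, 17.8 and 58.9 FPKM, with T-5d-2 the lowest, whereas EVM0011998 was highest there, at 40.6 FPKM. When T-5d-2 alone was added to the 14 libraries, 0 of these genes were called up at 5d. For both short-chain dehydrogenases T-5d-2 was the highest of the 5d libraries. The r over 18 libraries with EVM0005719 was 0.802 for EVM0005089, 0.838 for EVM0010738 and 0.632 for EVM0011998. With EVM0006859 it was 0.766, 0.585 and 0.802 for the same genes, so that the catalase gene was the closest to EVM0006859 of this list.

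The functional class of lipid transport and metabolism, which holds both dehydrogenases, gave 11 other genes, of which 7 are in the table. At 10d all 7 were called up in the 14 libraries, with a median log2 fold change of 2.07, and 5 of 7 in all 18, with a median of 1.71. Over all tested genes the median at 10d was -0.44 in the 14 libraries and -0.39 in all 18, with 18.5% and 14.1% of the genes called up. The carboxylesterase gene EVM0004404 and EVM0008553, a hypothetical protein, were the ones not called in all 18, with log2 fold changes of 0.96 each. At 5d 4 of 7 were called up, where 14.2% of all genes were, and 2 in all 18 libraries, where 11.7% were. At 1d 1 was called up and 1 down in the 14 libraries, beside 93 up and 199 down of 1088 genes. With all 18 libraries 1 was called up and 0 down, beside 71 up and 158 down of 1093 genes. EVM0000539, a lipase that releases fatty acids from fats, rose at 10d by 2.49 (SE 0.27, limma adjusted p = 1.3e-06), and EVM0003260, a GDSL-type lipase or acetylesterase, by 2.22 (SE 0.13, limma adjusted p = 6.04e-09). EVM0010522 encodes a GMC oxidoreductase, a class that oxidizes alcohols and sugars, and rose by 2.10 (SE 0.13, limma adjusted p = 7.93e-09). Of this class EVM0010522 had the highest r with EVM0005719, 0.956, and its mean was 625 ± 24.8 FPKM at 10d, against 167 ± 37.6 FPKM in CK (SD, n = 3 each). The r of these 7 genes ran from 0.394 to 0.956 with EVM0005719 and from 0.258 to 0.766 with EVM0006859. For each of the 7 the r with EVM0005719 was the higher. These r values are over all 18 libraries. In the left-out CK-1, T-1h-3 and T-1d-3, EVM0005719 was higher and EVM0006859 lower than in their kept partners. No r over the 14 kept libraries was computed for this class, so the part of the left-out libraries in this contrast was not tested. The genes of the lipid class, too, were picked on the same libraries, so the counts carry no independent evidence.

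**Figure D5:**
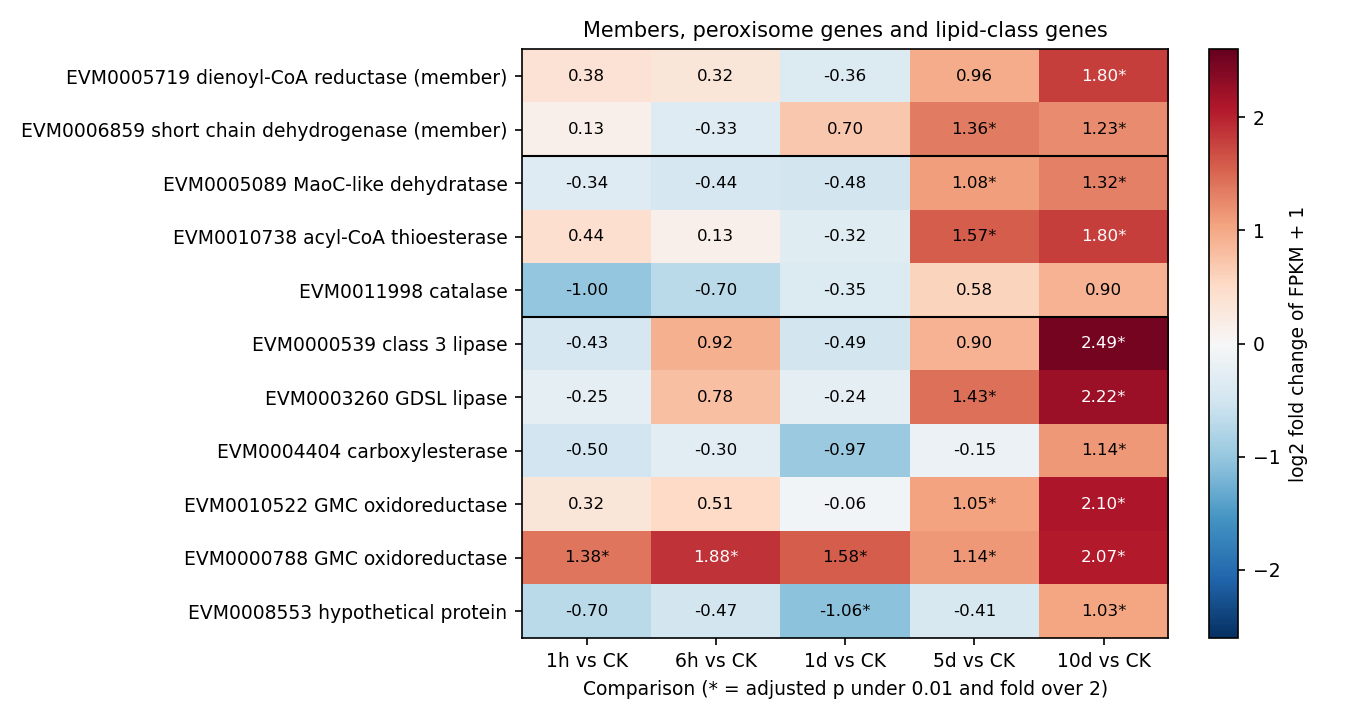
Log2 fold change of FPKM + 1 against CK at each time (columns) for the 2 short-chain dehydrogenases, the 3 peroxisome and fatty acid genes and the other genes of the lipid class (rows) in 14 libraries. An asterisk marks a called gene; EVM0005089 belongs to both lists and is drawn once, and all genes but the catalase are called at 10d.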

How the data were processed

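RNA-Seq of 18 mycelium libraries was used, 3 in each of 6 groups. The authors computed the FPKM after mapping reads to the S. latifolia genome with HISAT2 2.0.4, assembling transcripts with StringTie 1.3.3b and quantifying them with an RSEM-based method. Bowtie 0.12.2 also stands in the submitters' processing notes, and the genome build is not given in the sources used here. The table names no unit, and its values equalled the FPKM of the supplementary tables of the study in 392 of 392 and 415 of 415 comparisons (relative tolerance 1e-05). The rule that chose its 1100 genes (985 with EVM identifiers, 115 new) is not stated, so percentages of genes called cover these genes alone. None of the identifiers (0) matched the reference gene table, so no position is given.

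Values were compared as log2(FPKM + 1), which understates the change of low genes, for genes that reached 1 FPKM in 2 or more libraries. limma 3.58.1 in R 4.3.3 fitted 6 groups together with a variance trend (4.69 prior degrees of freedom), adjusted by Benjamini-Hochberg over all tested genes and checked on simulated data. The authors used DESeq2 on counts, which were not used here. The 14 libraries and both thresholds are those of the study, and errors in the 14 lack the departures of the left-out libraries. All 5 comparisons with CK share its libraries. Exact permutation tests used scipy 1.17.1, under Python 3.11.15.

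The genes and lists were chosen with earlier results of these data known. Named genes were the 2 dehydrogenases, listed genes in the table, and for each dehydrogenase the 5 genes with the highest and the 2 with the lowest r. Alternatives were all 18 libraries, fits of 2 groups, quantile and median scaling, no filter, a pseudocount of 0.1, no variance trend, an adjusted p under 0.05, a replicate block and each library left out. Adding left-out libraries singly, and leaving each library out of the r between the dehydrogenases, were chosen after seeing the data.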

Additional observations from a re-analysis of the deposited data

Results flagged for a closer look

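The levels of both genes differed between groups in a direct comparison of the times. In these differences, length of contact and age of the mycelium when sawdust arrived cannot be told apart. Both genes were picked by the study for following time and for their call at 10d. The differences are therefore not independent evidence of a rise with time. EVM0005719 was higher at 10d than at 1h by a log2 difference of 1.42 (SE 0.17, limma adjusted p = 3.41e-06) and higher at 5d than at 1d by 1.32 (SE 0.18, limma adjusted p = 3.98e-05). EVM0006859 was higher at 10d than at 1h by 1.10 (SE 0.11, limma adjusted p = 5.72e-07) and higher at 1d than at 6h by 1.03 (SE 0.11, limma adjusted p = 2.23e-06). With quantile normalization the difference of EVM0005719 was 0.73 between 10d and 1h and 0.87 between 5d and 1d, and it was 0.94 between 5d and 1d without T-1d-1, each under the fold threshold. The difference of EVM0006859 between 1d and 6h was 0.86 with all 18 libraries or with T-1d-3 alone added, 0.89 without T-1d-2 and 0.94 without T-6h-1, each under that threshold. Groups of 3 libraries were not searched for single outlying values.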

How the results depend on the processing

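No value that was called changed sign, and both genes were called up at 10d, and EVM0006859 at 5d, under every alternative run. Values not called did change sign: EVM0005719 at 6h against CK (-0.08 with quantile normalization), at 1d against CK (0.02 without T-1d-1) and at 6h against 1h (0.12 without T-1h-2), and EVM0006859 at 10d against 5d (0.09 with median scaling). The log2 fold change of EVM0005719 at 5d was over the fold threshold with median scaling (1.05), with the replicate block (1.08) and with T-5d-2 alone added (1.00). Its step from 1d to 5d fell under that threshold with quantile normalization (0.87), as did 10d against 1h (0.73). Its step from 5d to 10d was called with median scaling (1.06). The step of EVM0006859 from 6h to 1d was 0.86 and not called with all 18 libraries, with the replicate block in these, or with T-1d-3 alone added. Of the peroxisome and fatty acid genes, 0 were called up at 5d with all 18 libraries, with the replicate block in these and with T-5d-2 added, and 1 with quantile normalization. Each library left out in turn gave 1 to 2, with 1 without CK-3. The r between the dehydrogenases was 0.437 with quantile normalization and 0.487 to 0.645 with each library left out. Of 45 same-numbered pairs of libraries, 7 had a residual correlation over 0.1 (median -0.03). That check used all 18 libraries, so departures of the left-out ones enter it. It therefore cannot decide whether the replicate numbers pair the libraries. The block changed no other call against CK. Leaving out a library of a group with 2 assumes that the other varies like the rest. Read depth was not used, so errors rest on differences among libraries. The causes of these shifts were not tested.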

Other observations

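Beside the short-chain dehydrogenases, 8 other genes of the annotation tables have an NAD(P)-binding or related fold, and 7 of them were tested. Of these, 6 rose and 1 fell at 10d, in the 14 as in all 18 libraries. Over all tested genes 18.5% were called up and 35% down in the 14 libraries, and 14.1% up and 31.8% down in all 18. EVM0010522 and EVM0000788 of this list were already counted in the lipid class. EVM0006217 encodes an NAD-dependent epimerase or dehydratase, a distant relative of the short-chain dehydrogenases. On the log2 scale it rose at 10d by 2.05 (SE 0.08, limma adjusted p = 7.84e-11), and at 5d it had 0.37 (SE 0.08, limma adjusted p = 0.0012). With all 18 libraries the value at 5d was 0.83 (SE 0.30, limma adjusted p = 0.0232), as EVM0006217 was at 218 FPKM in T-5d-2 and at 66.9 and 70.6 FPKM in the other 5d libraries. Its r over 18 libraries was 0.836 with EVM0005719 and 0.683 with EVM0006859. EVM0002057, a flavin-binding monooxygenase, rose at 10d by 2.30 (SE 0.15, limma adjusted p = 1.09e-08). EVM0007103, another of this kind, rose at 5d by 2.56 (SE 0.14, limma adjusted p = 4.84e-09) and at 10d by 1.18 (SE 0.12, limma adjusted p = 1.08e-06). EVM0013062, a flavin-containing monooxygenase, fell by 1.91 at 10d (SE 0.17, limma adjusted p = 2.61e-07), and its r was -0.639 with EVM0005719 and -0.457 with EVM0006859. EVM0008017, an FAD/NAD(P)-binding domain protein, rose at 10d by 1.53 (SE 0.11, limma adjusted p = 2.21e-08). Its highest mean was at 6h, with 536 FPKM, against 202 FPKM at 10d. Its r was 0.117 with EVM0005719 and -0.292 with EVM0006859. The r with EVM0005719 and EVM0006859 was 0.883 and 0.448 for EVM0002057, and 0.281 and 0.595 for EVM0007103. These genes were also called by the study at 10d in these libraries.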
